A study of Mus musculus with 13 samples.

Results

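The transcripts described here are those that gave a clear signal in the newborn mouse forebrain, compared between Atrx-null animals and their wild type littermates. Members were selected on level alone. A probe set, the group of short oligonucleotides that reads a transcript on an Affymetrix mouse genome expression array, was kept when its mean deposited signal over the 7 arrays of postnatal day 0.5 (P0.5) was at least 100, and Affymetrix control probe sets were left out. This left 16213 of 45037 probe sets (36.0%). Of these, 14891 are annotated to 1 gene, 444 to several and 878 are unnamed here, and the named ones represent 9157 genes, out of 18193 genes read at any level. Mean signals of the members ran from 100 to 4650, with a median of 279. The 5 members just inside the limit had log2 differences between genotypes from -0.18 to 0.59, and the 5 probe sets just outside it from -0.18 to 0.75.

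All animals were males of mixed C57BL/6 x 129/Sv background. Atrx-null forebrains came from a cross of Atrx loxP females with heterozygous males carrying a forebrain Cre recombinase, so the gene is lost there and not in tissue without Cre. The sources used here do not say whether the wild type littermates carried Cre. RNA was taken from whole forebrain at P0.5 of 3 wild type pups (1, 2 and 3) and 4 Atrx-null pups (1, 2A, 2B and 3), where equal numbers mark a litter and 2A and 2B share wild type 2. Another 6 arrays at embryonic day E13.5, 3 of each genotype and each from 2 pooled forebrains, entered the same model. Each P0.5 array holds the RNA of a single pup. The p-values at this age rest on a spread estimated from these pups and the E13.5 pools together, and not from the P0.5 pups alone.

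ATRX is a chromatin remodeling protein of the SWI/SNF family, encoded on the X chromosome, that places a histone variant in repeat-rich heterochromatin. The newborn forebrain holds projection neurons of the cortical layers, inhibitory interneurons, striatal neurons and the last neural progenitors, and is only beginning to form astrocytes and myelinating cells. It is wrapped in meninges, membranes rich in collagen-producing fibroblasts, and contains the secretory choroid plexus, blood vessels and macrophages. Meningeal fibroblasts, vessels and macrophages do not derive from the forebrain neuroepithelium.

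Atrx itself was lower in every Atrx-null array. Its brightest probe set had signals of 1381, 1391 and 1645 in wild type 1, 2 and 3 and of 340, 437, 333 and 564 in Atrx-null 1, 2A, 2B and 3, a log2 difference of -1.83 (standard error 0.15, adjusted p = 0.000115). Which of its probe sets read the deleted stretch of the gene is unknown here, and the remaining signal does not show which cells kept the transcript. Log2 differences of the 4 well-measured Atrx probe sets ran from -1.46 to -2.07, and 3 of them passed the adjusted threshold (the remaining one had an adjusted p = 0.151). The forebrain label was matched by cortical transcription factors, since Emx1 had a mean signal of 153 in wild type and 145 in Atrx-null arrays and Lhx2 of 619 and 680, while only 6 of 44 measured markers of regions outside the telencephalon reached a mean of 100. Median signals of the well-measured probe sets were alike (275 to 282 over the 7 arrays), but 1 array stood apart. Wild type 3 had the lowest median over all probe sets (41.8, against 46.8 to 53.8) and low signals of meningeal genes, so values without it are given beside the results it moved most.

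The comparison called few transcripts. A linear model in limma gave each group of age and genotype its own mean, and 2 calls were read from it, an adjusted p under 0.05 and, following the filter of the study, a difference of 1.5-fold or more whose unadjusted p was under 0.05 (the 1.5-fold filter). Of 16209 well-measured probe sets other than those of Atrx, 26 passed the adjusted threshold (0.16%), 14 higher and 12 lower in Atrx-null, and 196 (1.21%) were higher and 71 (0.438%) lower by the 1.5-fold filter. With 1 probe set for each gene, 8 genes rose (0.0874%) and 6 fell (0.0655%) at the adjusted threshold, and by the 1.5-fold filter 127 genes (1.39%) were higher and 42 (0.459%) lower. The split moved with the scaling: 73.4% of the probe sets past the 1.5-fold filter were higher when arrays were centred on the well-measured probe sets, and 57.4% when they were centred on all probe sets. All 14 genes past the adjusted threshold kept their direction in each of the 4 littermate pairs. Another 4 genes, named after their values were seen, passed by a probe set other than their brightest. These were Cxcl12 (log2 difference 0.98, adjusted p = 0.00201), Clic6 (1.69, adjusted p = 0.0169), Stx17 (-0.88, adjusted p = 0.0169) and Zfp827 (0.84, adjusted p = 0.027, or 0.0807 with the replicate pair as a block). Clic6, Stx17 and Zfp827 had adjusted p-values of up to 0.0992, 0.0968 and 0.126 with 1 array left out. Of the 14 genes, Nr4a2, Cd99, Tcfl5, Nhlh2, Tgfbr3 and Dera kept their calls with arrays centred on all probe sets. The calls of Zic1, Notch2, St18, Selenop, Ccdc112, Ccdc124, Panx1 and Tenm3 were lost with that centring (adjusted p from 0.0635 to 0.192).

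The fit estimated the spread of each gene over the P0.5 and E13.5 arrays together. With only the P0.5 arrays fitted, 15 genes passed the adjusted threshold, and 7 of the 14 were among them (Nr4a2, Cd99, Tenm3, Tcfl5, Nhlh2, Zic1 and Selenop). Tgfbr3, Notch2, Dera, St18, Ccdc112, Ccdc124 and Panx1 had adjusted p-values from 0.0693 to 0.0924. The 8 genes that passed in that fit and not over all arrays were Sst, Met, Nefm, Trpc4 and Cyp26b1, which were lower in Atrx-null, and Sostdc1, Ecrg4 and Cdh10, which were higher. A gene can enter through the genotype in which it is high: 92 of the 267 probe sets past the 1.5-fold filter had a mean below 100 in 1 genotype, 70 of them in wild type. Of the 26 probe sets past the adjusted threshold, 8 had a mean below 100 in 1 genotype.

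**Figure D1:**
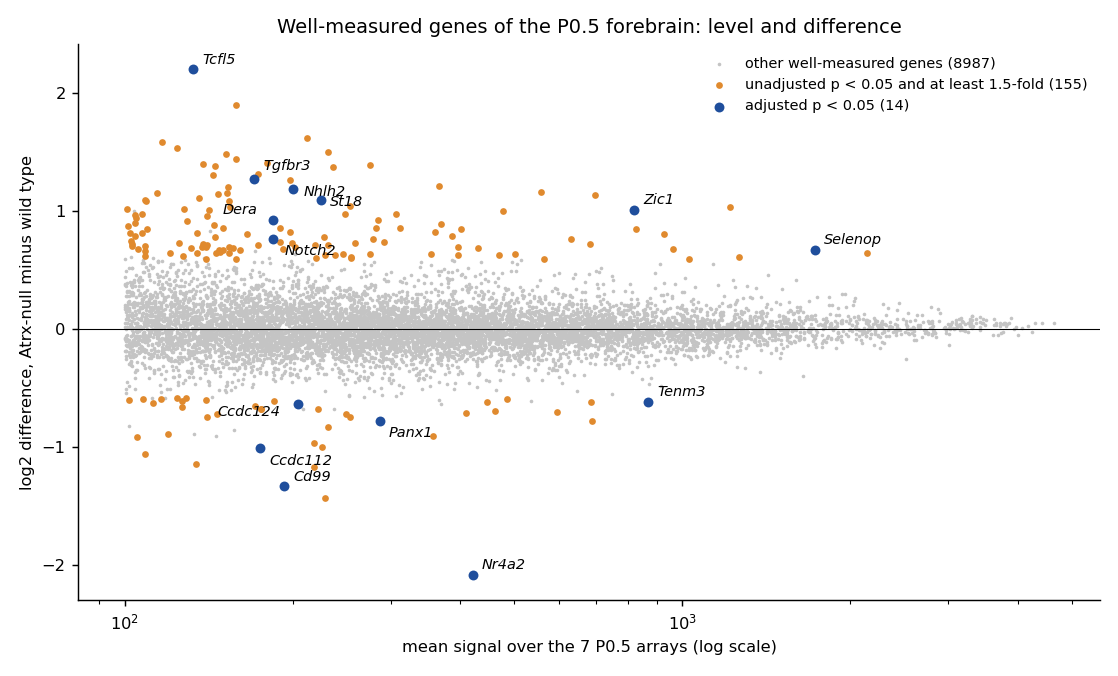
Mean signal over the 7 P0.5 arrays (log axis) against the log2 difference, Atrx-null minus wild type, for 9156 well-measured genes, each as 1 point, with genes past the 1.5-fold filter in orange and the 14 past an adjusted p of 0.05 in blue and named. Most genes lie near 0 at every level, and Tcfl5 and Nr4a2 stand at the upper and lower ends.

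Nr4a2, a nuclear receptor that marks neurons of the subplate and the deepest cortical layer, showed the largest fall among well-measured genes. Its signals were 761, 643 and 845 in wild type 1, 2 and 3 and 166, 170, 163 and 201 in Atrx-null 1, 2A, 2B and 3, so the lowest wild type array lay well above the highest Atrx-null array. The log2 difference was -2.08 (standard error 0.14, adjusted p = 1.68e-05 from limma), or 4.23-fold. The 4 well-measured Nr4a2 probe sets gave log2 differences from -1.37 to -2.08, all past the adjusted threshold, while 2 others were too dim to be read (mean signals of 14.8 and 2.47). The related receptors Nr4a1 and Nr4a3, which are induced by neuronal activity, had log2 differences of 0.15 and -0.39 with overlapping groups (adjusted p = 0.999 for both).

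Cd99, a cell surface glycoprotein whose human counterpart lies in the pseudoautosomal region, fell as well. Signals were 305, 303 and 277 in the wild type and 116, 129, 114 and 107 in the Atrx-null arrays, a log2 difference of -1.33 (standard error 0.11, adjusted p = 0.000115). The groups were far apart and varied little. Its other well-measured probe sets had log2 differences of -0.98 (adjusted p = 0.0165) and -1.05 (adjusted p = 0.093, or 0.0373 in a fit that blocks by littermate pair, called the pair block here).

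The other genes that fell are less tied to a single cell type. Ccdc112, a coiled-coil protein, had signals of 223, 214 and 303 in wild type and 121, 102, 118 and 142 in Atrx-null arrays (log2 difference -1.01, standard error 0.15, adjusted p = 0.0169). Panx1, which forms membrane channels that release ATP, had 389, 328 and 418 against 206, 255, 194 and 219 (-0.78, standard error 0.13, adjusted p = 0.0295, or 0.0673 with the pair block). Tenm3, a teneurin that guides the wiring of neurons, had 1098, 1066 and 1096 against 694, 632, 778 and 715 (-0.61, standard error 0.10, adjusted p = 0.037, or 0.0748 with the pair block). The other well-measured Tenm3 probe set gave -0.55 and did not pass (adjusted p = 0.182). In each of these 3 genes all Atrx-null arrays lay below all wild type arrays. Ccdc124, a coiled-coil protein that binds ribosomes, had signals of 240 to 294 in wild type and 155 to 173 in Atrx-null arrays (-0.63, standard error 0.10, adjusted p = 0.0273). These 4 calls were less firm than those of Nr4a2 and Cd99, which held without any single array. Tenm3 and Ccdc124 lost theirs without any one of the 7 arrays (adjusted p up to 0.155 and 0.135), Panx1 without wild type 1 or 3 or Atrx-null 1, 2B or 3 (up to 0.161), and Ccdc112 without wild type 3 or Atrx-null 1, 2A or 2B (up to 0.0943).

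Zic1, Nhlh2, St18 and Tcfl5, which encode transcription factors, were among the genes that rose. Zic1, a zinc finger factor of the medial forebrain, septum and meninges, had signals of 588, 491 and 488 in wild type and 905, 1152, 1005 and 1103 in Atrx-null arrays. The log2 difference was 1.01 (standard error 0.14, adjusted p = 0.0135), and its second probe set gave 1.29 (adjusted p = 0.0196). No Atrx-null array came near the wild type range. The call was lost without wild type 2 or 3 or Atrx-null 2A or 3 (adjusted p from 0.0542 to 0.0874), while the difference stayed between 0.96 and 1.10. Relatives chosen after their values were seen pointed the same way: Zic5 had a log2 difference of 0.73 (adjusted p = 0.0618), and Zic4, whose span overlaps the end of Zic1 in the genome and which is dim here (mean signals of 47.2 and 92.4), of 1.00 (adjusted p = 0.272).

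Nhlh2, a basic helix-loop-helix factor of newly formed neurons, rose from signals of 139, 88.5 and 124 in wild type to 273, 241, 229 and 305 in Atrx-null arrays. The log2 difference was 1.19 (standard error 0.15, adjusted p = 0.00349), and the call held without any single array. Its relative Nhlh1, dim at mean signals of 54.6 and 92.2, had a log2 difference of 0.78 (adjusted p = 0.107). St18, a zinc finger factor of developing neurons, had 148, 114 and 146 against 396, 245, 236 and 287 (log2 difference 1.09, standard error 0.18, adjusted p = 0.0291). In both Nhlh2 and St18 every Atrx-null array lay above every wild type array. Of the 7 arrays left out in turn, St18 kept its call only without Atrx-null 2B (adjusted p = 0.0325), with values up to 0.119 without the others.

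Tcfl5, a basic helix-loop-helix factor best known from germ cells, showed the largest rise. Signals were 44.7, 45.3 and 39.7 in wild type and 188, 185, 265 and 162 in Atrx-null arrays, a log2 difference of 2.20 (standard error 0.23, adjusted p = 0.000827) or 4.60-fold. The gene is well measured only through the Atrx-null arrays, so a difference in this direction was a condition of its being kept. The call held without any single array.

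The remaining genes that rose have other roles. Tgfbr3, the betaglycan coreceptor of TGF-beta, had signals of 117, 109 and 64.8 in wild type and 203, 244, 216 and 239 in Atrx-null arrays (log2 difference 1.27, standard error 0.19, adjusted p = 0.0169), and without wild type 3 the difference was 1.00. Its wild type mean was 97.1, so, like Tcfl5, it is well measured only through the Atrx-null arrays. Notch2, a Notch receptor of progenitors and vessels, had 126, 128 and 143 against 262, 214, 212 and 207 (0.77, standard error 0.12, adjusted p = 0.0228). Dera, an enzyme of deoxyribose breakdown, had 122, 126 and 116 against 203, 247, 292 and 185 (0.93, standard error 0.15, adjusted p = 0.027). Wild type and Atrx-null arrays did not overlap in any of the 3. Selenop, a secreted selenium carrier, was the brightest gene that rose, at 1475, 1271 and 1163 against 2019, 2111, 1892 and 2177 (0.67, standard error 0.12, adjusted p = 0.0499, or 0.0551 with the pair block). Leaving out any one array took away its call and that of Notch2, with adjusted p-values of as much as 0.243 (without wild type 3) and 0.0907 (without wild type 1). The call of Dera was lost without any array but Atrx-null 3 (up to 0.135, without wild type 3), and that of Tgfbr3 without Atrx-null 2A or 3 (0.0793 and 0.0618). Another 3 probe sets past the threshold carry no single gene symbol, with log2 differences of -1.04 (adjusted p = 0.0499, or 0.103 with the pair block), 1.08 (adjusted p = 0.0402) and 1.40 (adjusted p = 0.00257). The first and second lost the call whichever array was left out, and the last kept it.

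**Figure D2:**
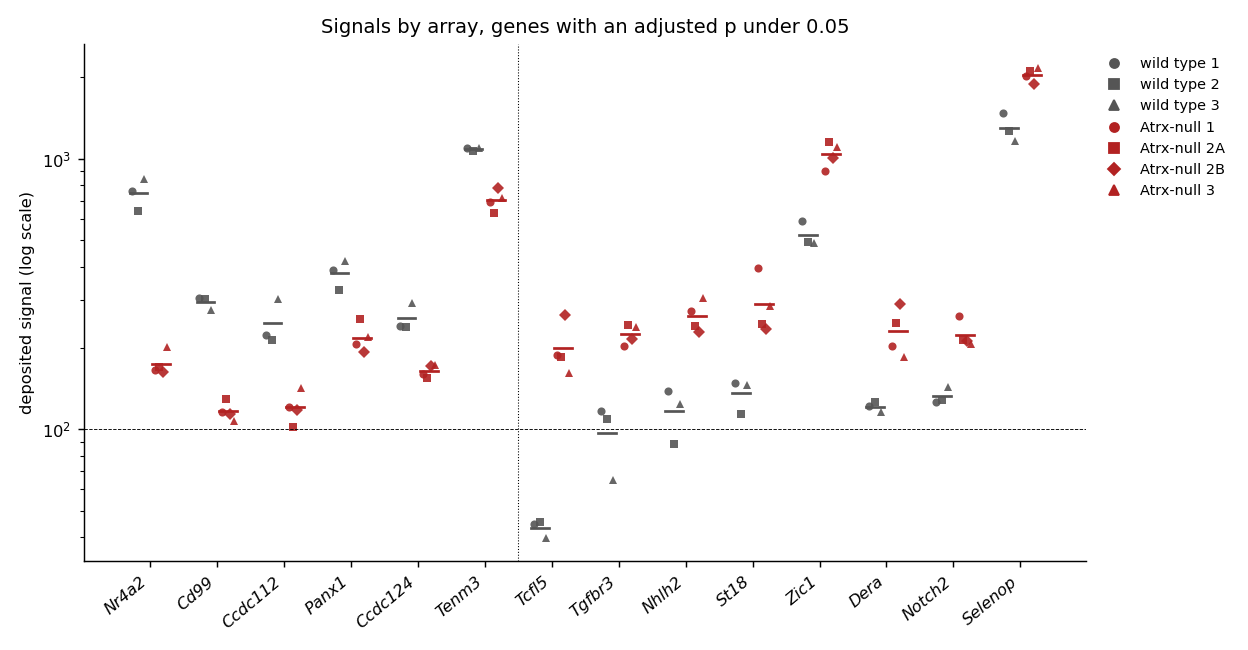
Deposited signal (log axis) of the 6 genes that fell (left of the dotted line) and the 8 that rose on each P0.5 array, wild type in gray and Atrx-null in red, with the shape marking the litter, a short bar at each group mean and a dashed line at the limit of 100. No gene has a red point inside the gray range, and the wild type points of Tcfl5 lie below the limit.

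The stretches before the start sites of 3 of these genes, Nr4a2, Tcfl5 and Zic1, are shown because they carry the largest fall, the largest rise and a rise read by more than 1 probe set. Each is the 250 bases upstream of the RefSeq start in GRCm38.p6, on the minus strand and written 5′ to 3′ along the gene, with capitals at matches to the GC box (GGGCGG or its reverse CCGCCC), the CCAAT box (CCAAT or ATTGG) and the TATA box (TATAAA or TTTATA).
Nr4a2, chr2:57124004-57124253: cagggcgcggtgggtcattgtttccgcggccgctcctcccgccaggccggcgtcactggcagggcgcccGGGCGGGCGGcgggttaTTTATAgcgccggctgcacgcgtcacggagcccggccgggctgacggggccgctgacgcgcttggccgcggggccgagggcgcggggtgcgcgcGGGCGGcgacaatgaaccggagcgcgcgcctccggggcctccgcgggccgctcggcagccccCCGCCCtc
Tcfl5, chr2:180642692-180642941: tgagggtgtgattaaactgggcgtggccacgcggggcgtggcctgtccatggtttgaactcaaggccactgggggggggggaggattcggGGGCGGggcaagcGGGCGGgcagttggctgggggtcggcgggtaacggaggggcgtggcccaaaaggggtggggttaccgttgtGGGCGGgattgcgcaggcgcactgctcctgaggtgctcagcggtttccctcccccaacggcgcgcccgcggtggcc
Zic1, chr9:91365769-91366018: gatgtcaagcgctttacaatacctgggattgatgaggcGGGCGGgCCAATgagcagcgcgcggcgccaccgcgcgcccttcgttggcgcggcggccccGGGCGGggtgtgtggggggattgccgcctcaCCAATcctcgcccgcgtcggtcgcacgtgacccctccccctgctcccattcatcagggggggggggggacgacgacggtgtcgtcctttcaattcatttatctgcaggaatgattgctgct

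All 3 windows are rich in G and C (80.0%, 70.4% and 66.0%) and in CG pairs. The Nr4a2 window holds 44 CG pairs, more than 99.5% of the 32851 RefSeq windows of this length, against 22 for Tcfl5, 27 for Zic1 and a median of 6. GC boxes were found 4 times before Nr4a2, where 2 of them overlap, 3 times before Tcfl5 and 2 times before Zic1, and 32.7% of all windows hold at least 1. The window of Nhlh2, which also rose and is not shown, differs from these, with 42.0% G and C, 2 CG pairs and no GC box. It ends at base 102010144, inside the span of the gene, which begins at 102010111, while the 3 windows shown lie outside their own genes. The Zic1 window lies inside the span of Zic4, which runs from 91365631 to 91389351. The 2 CCAAT boxes of Zic1 and the single reversed TATA box of Nr4a2 are letters that 33.8% and 12.4% of windows hold.

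Cortical projection neurons did not move as a block. Of 21 well-measured genes of deep layer and subplate neurons, 13 were higher and 8 lower, with a median log2 difference of 0.19, beside a median of -0.002 and 49.3% higher over all 9157 well-measured genes. An unadjusted p under 0.05 was reached by 8 that were higher and 2 that were lower, where 4.83% and 2.79% of all well-measured genes reached it. Nr4a2 was the only member past the adjusted threshold. Nefm, a neurofilament chain of long axons, had signals of 331, 349 and 313 in wild type and 194, 201, 200 and 184 in Atrx-null arrays, with no overlap (log2 difference -0.75, adjusted p = 0.19, or 0.0483 with the pair block and 0.0281 with only the P0.5 arrays fitted). Nxph4, a secreted neurexin ligand of the subplate, lay on the other side at 134, 235 and 131 against 274, 245, 266 and 310 (0.78, adjusted p = 0.183). Ccn2, also known as connective tissue growth factor and a subplate marker, had a log2 difference of 0.57 (adjusted p = 0.562). Tbr1, Tle4 and Fezf2, transcription regulators of corticothalamic and subcerebral neurons, had log2 differences of 0.38, 0.43 and 0.46 (adjusted p = 0.211, 0.4 and 0.749), and Bcl11b, another of them, of 0.19 with overlapping groups. In whole forebrain RNA, fewer cells of a type and less RNA per cell cannot be told apart, here and in what follows.

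Genes of upper layer neurons leaned lower. Of 21 well-measured members 13 were lower and 8 higher, with a median of -0.07, and 5 of the lower members and none of the higher ones had an unadjusted p under 0.05. Pou3f1, a POU factor of cortical projection neurons, had signals of 838, 773 and 745 in wild type and 453, 515, 624 and 577 in Atrx-null arrays (log2 difference -0.53, adjusted p = 0.168). Its relative Pou3f2 had a difference of -0.41 (adjusted p = 0.513). Both genes were lower on all Atrx-null arrays than on any wild type array. Met, a receptor tyrosine kinase of growing cortical axons, had 374, 443 and 263 against 141, 114, 139 and 124, also without overlap (-1.43, standard error 0.55, adjusted p = 0.68, or 0.0246 with only the P0.5 arrays fitted), and was the only member past the 1.5-fold filter. The E13.5 arrays, which enter the first of these fits, read Met at mean signals of only 9.0 in wild type and 6.85 in Atrx-null. Cux1, Cux2 and Rorb, which define the upper layers, had log2 differences of 0.00, -0.37 and 0.09.

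Interneuron genes were lower in 17 of 19 cases, with a median log2 difference of -0.24. In 7 of the 19 every Atrx-null array lay below every wild type array, where 4.83% of all well-measured genes did so. The summed signal of the 19 was 9956 to 10822 in wild type and 8464 to 8857 in Atrx-null arrays, and the median difference within each of the 4 pairs lay between -0.21 and -0.24. Cbln4, a secreted synapse organizer, had signals of 171, 154 and 140 in wild type and 78.0, 82.8, 78.3 and 57.2 in Atrx-null arrays (log2 difference -1.06, standard error 0.20, adjusted p = 0.073). Its Atrx-null mean was 74.1, so it is well measured only through the wild type arrays. Sst, the peptide somatostatin, had 907, 871 and 945 against 529, 544, 520 and 499 (-0.78, adjusted p = 0.729, or 0.00692 with only the P0.5 arrays fitted). Both genes had tight groups that did not overlap, and they were the members past the 1.5-fold filter. The enzymes that make the transmitter GABA were closer to 0 than the list median, with log2 differences of -0.17 for Gad1 and -0.08 for Gad2. Among fate factors Dlx2 (-0.11) was so too, Dlx1 (-0.27) and Dlx5 (-0.26) lay near that median, and Lhx6 (-0.48) lay below it. All of these had an adjusted p of 0.999. Without wild type 3 the median of the list was -0.18.

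Striatal projection neurons had 10 of 17 genes higher and none past the 1.5-fold filter, and Ppp1r1b (DARPP-32), which relays dopamine signals, was the member with the smallest p (0.57, adjusted p = 0.299). Hippocampal and dentate genes had a median of 0.02 over 12 members. Markers of Cajal-Retzius cells, the early reelin-producing neurons of the cortical surface, were higher in 8 of 10 cases (median 0.30), and the members past the adjusted threshold were Nhlh2 and Zic1, described above. Reln, which makes reelin itself, had a log2 difference of 0.18 with overlapping groups. Ebf3 and Trp73, which mark the cells more strictly, are dim, with log2 differences of 0.82 and 0.69 (adjusted p = 0.093 and 0.197).

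Genes of synapses and neuronal maturation were mostly lower, with 28 of 39 lower and a median of -0.11. Besides Nefm, Nrgn, which buffers calmodulin in dendrites, passed the 1.5-fold filter, at signals of 603, 599 and 371 in wild type and 348, 252, 481 and 217 in Atrx-null arrays (log2 difference -0.71, adjusted p = 0.58). Here Atrx-null 2B lay inside the wild type range. Gria1, an AMPA receptor subunit, had 582, 545 and 560 against 385, 392, 413 and 372, without overlap (-0.51, adjusted p = 0.999), and Syt1, the calcium sensor of vesicle release, had a difference of -0.36 (adjusted p = 0.883). The other well-measured Gria1 probe set gave -0.18 with overlapping groups, so the probe sets disagree. Snap25, Syp and Map2, which are used by most neurons, lay between -0.01 and -0.08. Among 16 neuropeptide genes the median was -0.05, and Cck, the peptide cholecystokinin, had 550, 497 and 416 against 263, 220, 315 and 236 (-0.91, adjusted p = 0.283). Of 20 genes induced by activity, Nr4a2 and Egr3 (-0.64, adjusted p = 0.576) passed the 1.5-fold filter, both lower, and the median was 0.06. Axon guidance genes had a median of 0.04 over 41, with only Dcc, the netrin receptor, past the 1.5-fold filter. Its signals were 354, 336 and 382 in wild type and 592, 597, 412 and 609 in Atrx-null arrays (0.63, adjusted p = 0.104), where Atrx-null 2B stood apart from the other Atrx-null arrays.

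Progenitor genes were slightly higher. Of 28 radial glia genes 21 were higher (median 0.14), with none past the 1.5-fold filter, and Vim, an intermediate filament of radial glia, had the smallest p (log2 difference 0.46, adjusted p = 0.355). Of 20 genes of intermediate progenitors and newborn neurons 14 were higher (median 0.11). Insm1, a zinc finger factor of dividing neuronal progenitors, had signals of 346, 311 and 297 in wild type and 618, 575, 396 and 465 in Atrx-null arrays (0.68, standard error 0.14, adjusted p = 0.0938) and was the only member past the 1.5-fold filter. Its groups did not overlap on this probe set, while its other well-measured probe set gave 0.5 with overlapping groups (adjusted p = 0.716). Eomes, the defining factor of these progenitors, had a difference of 0.35 (adjusted p = 0.999). Cell cycle genes were higher in 19 of 24 cases (median 0.17), none past the 1.5-fold filter, and the proliferation marker Mki67 had a difference of 0.17. The median of this list was -0.06 in the pair of Atrx-null 2B and 0.36 in that of Atrx-null 1, and with arrays centred on all probe sets the medians of these 3 lists were 0.06, 0.02 and 0.09.

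Astrocyte genes were higher in 22 of 26 cases, with a median of 0.20. The median ranged from -0.02 to 0.40 between pairs, and was 0.11 without wild type 3 and 0.36 without wild type 1. Gjb6 and Gja1, the connexins of astrocytes and meninges, were among the 3 past the 1.5-fold filter. Gjb6 had signals of 143, 95.5 and 31.1 in wild type and 202, 161, 181 and 195 in Atrx-null arrays (log2 difference 1.30, adjusted p = 0.344), and 0.66 without wild type 3. Its wild type mean was 90.0, so it is well measured only through the Atrx-null arrays. Gja1 had a difference of 0.61 (adjusted p = 0.372), or 0.44 without wild type 3. Mt2, a metallothionein, was the third, with a difference of 0.85 (adjusted p = 0.746). Gfap, the intermediate filament that defines astrocytes, was 354, 217 and 103 against 266, 340, 403 and 193, with full overlap (0.55, adjusted p = 0.995), and the water channel Aqp4 had a difference of -0.24. Only Gjb6 passed the filter without wild type 3. The summed signal of the list was 13738 to 19185 in wild type and 17390 to 22086 in Atrx-null arrays.

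Oligodendrocyte genes had a median of 0.07 over 12 well-measured members. Olig2, Sox10 and Pdgfra, which mark the lineage from its start, lay between -0.02 and 0.09. Mbp, the myelin basic protein, had signals of 155, 160 and 169 in wild type and 179, 177, 139 and 177 in Atrx-null arrays on its brightest probe set (log2 difference 0.07, adjusted p = 0.999). Its other well-measured probe sets gave -0.16 (adjusted p = 0.999) and -1.0 (adjusted p = 0.142), so the probe sets disagree. Cldn11, a tight junction protein of both myelin and the arachnoid, was the only member past the 1.5-fold filter, at 235, 196 and 53.7 against 500, 317, 308 and 315 (1.39, or 0.72 without wild type 3).

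The broadest shift was in genes of meningeal fibroblasts. All 32 well-measured members were higher in Atrx-null, 26 of them past the 1.5-fold filter, with a median log2 difference of 0.95. By its brightest probe set none passed the adjusted threshold, and Cxcl12 passed by its other one, which lies below 100 in wild type. Of all well-measured genes, 1.39% were higher by that filter and 5.73% had every Atrx-null array above every wild type array, as did 24 of the 32. Because a level limit can favor genes that are high in 1 genotype, 2 wider or narrower sets were read as well. Of the 21 members at or above 100 in both genotypes, all were higher and 17 passed the filter (median 0.82). Of the 44 read at any level 43 were higher and 33 passed it, where 2.7% of genes at any level were higher by the filter, and the exception was Cped1 at -0.03.

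Collagens and regulators of the meninges shared this pattern. Col1a1, a chain of fibrillar collagen, had signals of 163, 175 and 45.4 in wild type and 399, 241, 289 and 310 in Atrx-null arrays (log2 difference 1.5, standard error 0.40, adjusted p = 0.286), and Col3a1 had 534, 558 and 220 against 1098, 777, 708 and 986 (1.14, adjusted p = 0.249). Igf2, a growth factor of meninges and vessels, had 965, 889 and 508 against 1460, 1546, 1513 and 1636 (1.03, standard error 0.20, adjusted p = 0.0867). In all 3 the groups were separate and wild type 3 was the lowest array. Cxcl12, a meningeal chemokine that positions Cajal-Retzius cells and interneurons, had 466, 541 and 365 against 826, 686, 682 and 854 (0.76, standard error 0.15, adjusted p = 0.08). Its other well-measured probe set had 72.8, 71.6 and 74.5 against 132, 138, 154 and 146 (0.98, adjusted p = 0.00201), a call that held whichever array was left out, and wild type 3 was not low on it. This probe set is well measured only through the Atrx-null arrays, so a difference in this direction was a condition of its being kept. Bmp6, a bone morphogenetic protein, had 121, 106 and 64.1 against 247, 219, 207 and 249 (1.31, standard error 0.26, adjusted p = 0.0852, or 0.0409 with the pair block). Tbx18 and Foxc1, transcription factors that define these fibroblasts, had differences of 1.54 and 0.81 (adjusted p = 0.117 and 0.568). Bmp6 and Tbx18 had wild type means below 100, so both are well measured only through the Atrx-null arrays. Ptgds, a prostaglandin synthase of the arachnoid and the brightest member, had 2190, 2061 and 894 against 2632, 2514, 2295 and 2428 (0.64, adjusted p = 0.618).

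Wild type 3 carried a large part of the size of this shift but not its direction. The summed signal of the 32 genes was 9646, 9738 and 5073 in wild type 1, 2 and 3 and 13008 to 15286 in the Atrx-null arrays. Within pairs the median difference was 0.71, 0.39 and 0.41 for Atrx-null 1, 2A and 2B and 1.75 for Atrx-null 3. Without wild type 3 the median was 0.57, all 32 were still higher and 15 passed the filter, and without both arrays of litter 3 it was 0.52 with 13. Col1a1 then had a difference of 0.86 without wild type 3, Col3a1 of 0.69, Igf2 of 0.74 and Ptgds of 0.22. The sources used here do not say how much of the meninges stayed on each dissected forebrain, and its part in these values was not tested.

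**Figure D3:**
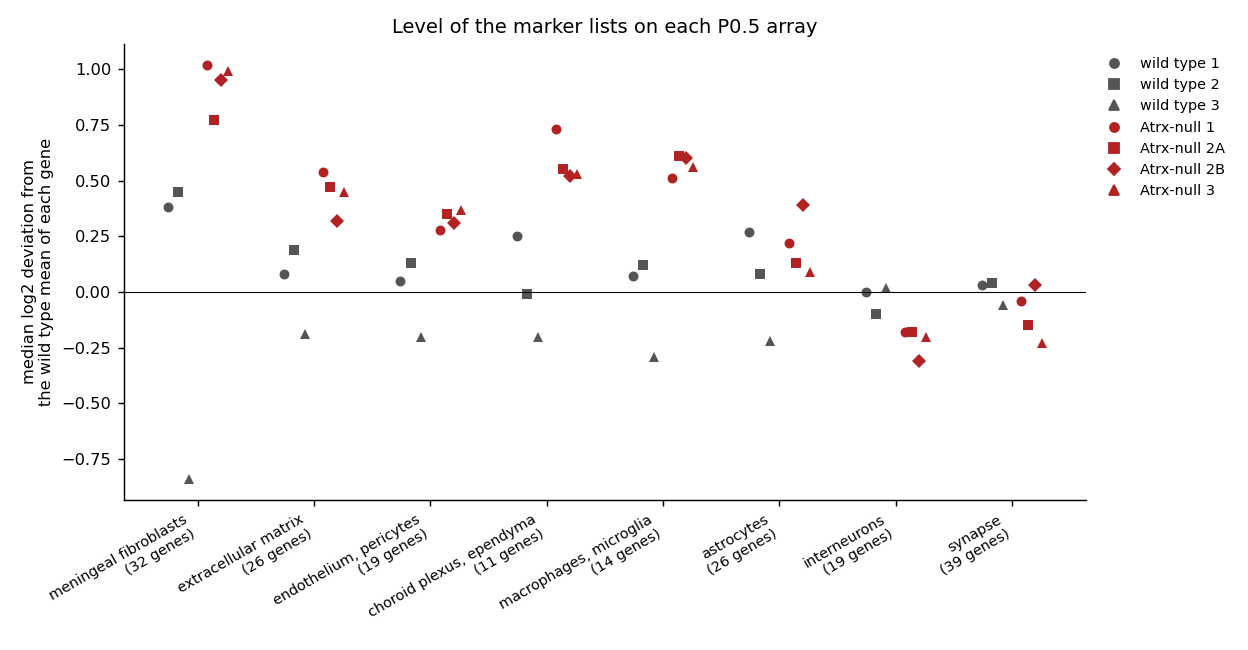
Level of 8 marker lists on each P0.5 array, as the median over the well-measured members of the log2 deviation from the wild type mean of each gene (vertical axis), wild type in gray and Atrx-null in red, with the shape marking the litter. Meningeal, matrix, vessel, choroid plexus and macrophage lists are higher on all 4 Atrx-null arrays than on any wild type array, wild type 3 is lowest in those lists, and interneuron genes lie lower in Atrx-null.

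Other genes of tissue around and within the brain were higher too. Of 26 genes of the extracellular matrix and basement membrane 23 were higher and 9 passed the 1.5-fold filter (median 0.50, and 0.39 with 5 passing without wild type 3). Mmp14, a membrane-bound collagenase, had signals of 175, 195 and 196 in wild type and 261, 289, 331 and 280 in Atrx-null arrays (log2 difference 0.63, adjusted p = 0.116), and wild type 3 did not stand apart for it. Those passing without wild type 3 were Mmp14, Col4a5, Lox, Loxl1 and Postn. Of 19 endothelial and pericyte genes 17 were higher (median 0.31), and Itm2a, Cdh5 and Vtn passed the filter. Without wild type 3 the median was 0.28, Cdh5 and Tek passed, and Vtn, a secreted adhesion protein, went from 0.85 to 0.48. Itm2a, a membrane protein of vessels, had 754, 802 and 616 against 1194, 1119, 988 and 1273 (0.68, adjusted p = 0.0894). Cldn5, the tight junction protein of the blood-brain barrier, had 417, 490 and 455 against 505, 468, 446 and 560, with overlap (0.14), and Kdr, the main receptor for VEGF, had a difference of -0.12.

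All 11 well-measured genes of the choroid plexus and ependyma were higher, with a median of 0.60 and 6 past the 1.5-fold filter. Folr1, the folate receptor of the choroid plexus, had signals of 93.8, 87.1 and 41.7 in wild type and 229, 203, 184 and 130 in Atrx-null arrays (log2 difference 1.40, adjusted p = 0.117, or 0.0191 with the pair block). Clic6, an intracellular channel protein of this epithelium, had 179, 163 and 172 against 271, 264, 245 and 247 (0.60, adjusted p = 0.162), and its other well-measured probe set had 107, 57.4 and 48.8 against 239, 215, 193 and 213 (1.69, adjusted p = 0.0169, up to 0.0992 with 1 array left out). That probe set and the one of Folr1 are well measured only through the Atrx-null arrays. Both genes were separate between groups. Ttr, the thyroid hormone carrier that the choroid plexus secretes, had 3676, 3550 and 3353 against 3638, 4085, 3161 and 3965 on its brightest probe set (0.08, adjusted p = 0.999). Its other 3 well-measured probe sets gave 0.21, 0.39 and 0.64 (adjusted p of 0.54 or more), the last pair without overlap, so the probe sets disagree on the size of the difference. The limit matters here, since 4 of the 11 were below 100 in wild type and the 7 at or above 100 in both genotypes had a median of 0.32. Without wild type 3 the median of all 11 was 0.44, and Folr1, Clic6, Car12 and Sostdc1 passed the filter.

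Macrophage and microglia genes were higher in all 14 cases (median 0.56), 7 of them past the 1.5-fold filter. Ctss, a lysosomal protease of microglia, had signals of 222, 215 and 195 in wild type and 293, 325, 322 and 358 in Atrx-null arrays (log2 difference 0.64, standard error 0.13, adjusted p = 0.0925). Csf1r and Cx3cr1, the receptors that define microglia, had differences of 0.49 and 0.50 (adjusted p = 0.556 and 0.508), with every Atrx-null array above every wild type array. Mrc1, the mannose receptor of macrophages at the brain borders, had 129, 121 and 49.8 against 239, 174, 174 and 191 (1.08, adjusted p = 0.241), or 0.64 without wild type 3, when it was the only member still past the filter and the median was 0.49. The 8 well-measured complement genes had a median of 0.65 (0.43 without wild type 3), and the 5 past the filter were the 3 C1q chains of the macrophage list, Colec12 and Serping1. The 5 complement genes at or above 100 in both genotypes had a median of 0.26, and 2 of them passed the filter. Of the 19 read at any level, 13 were higher and 6 lower (median 0.26). The probe sets of C1qb disagree, at 0.78 on the brightest and 0.06 on another that is well measured. Colec12, a scavenger receptor of vessels and fibroblasts, had a difference of 1.59 (adjusted p = 0.0978, or 0.0489 with the pair block), or 1.12 without wild type 3, when it alone passed the filter. Its wild type signals were 76.7, 69.6 and 28.2, so Colec12 is well measured only through the Atrx-null arrays. Red blood cell genes did not follow, with a median of 0.09 over 6 members and a summed signal of 5588 to 7196 in wild type and 5781 to 6857 in Atrx-null arrays.

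The meningeal, matrix, vessel, choroid plexus and macrophage lists together hold 102 well-measured genes, or 1.11% of all, and these made up 51 of the 127 genes higher by the 1.5-fold filter (40.2%) and 0 of the 42 lower. Without wild type 3 they made up 27 of 90 (30%). The 9 lists of neurons, synapses, peptides and activity hold 191 genes (2.09%), and gave 4 of the higher genes (3.15%) and 8 of the lower ones (19%), and without wild type 3 they gave 5 of the 90 (5.56%). The lists were written with earlier results of these data known, so these shares describe them and test nothing.

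**Figure D4:**
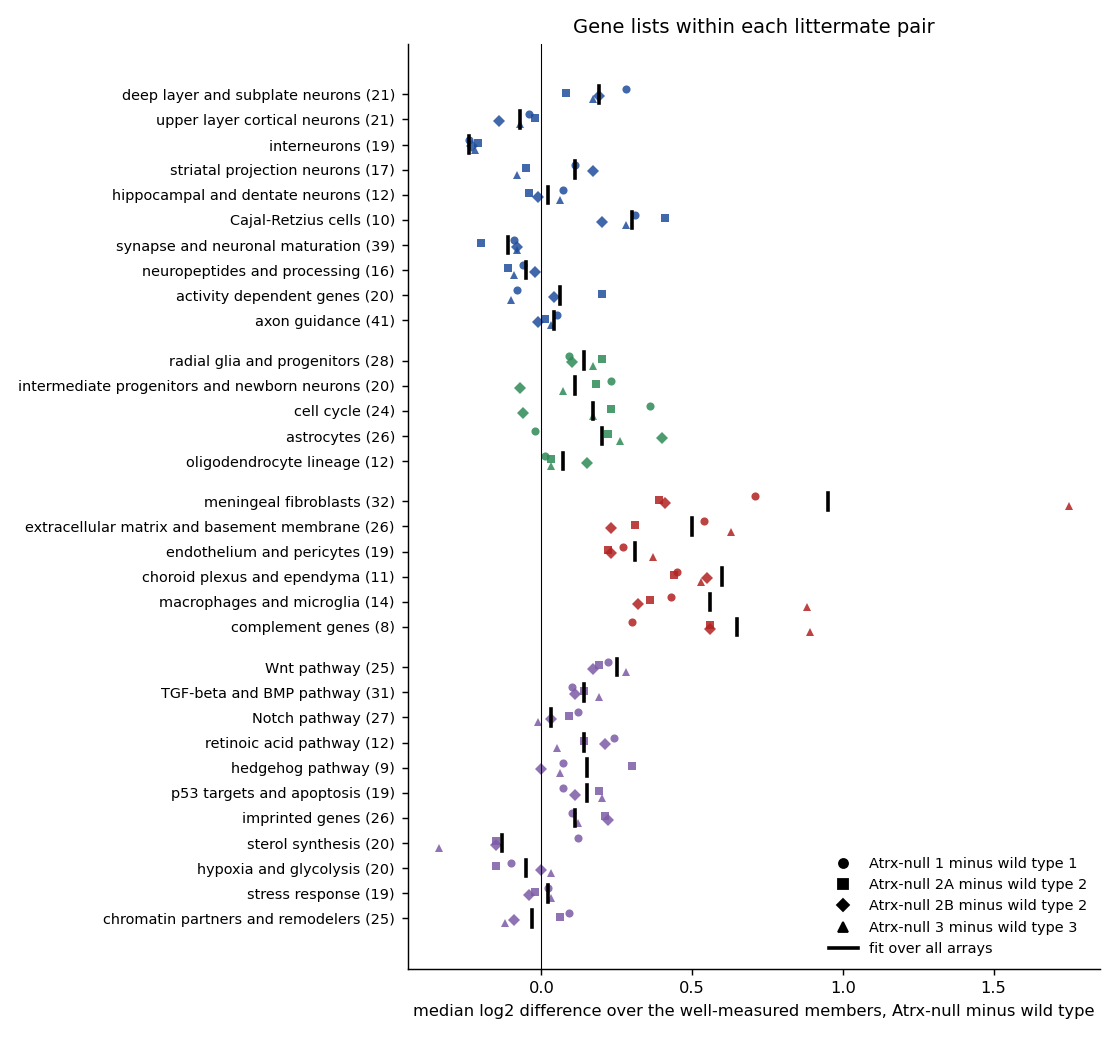
Median log2 difference, Atrx-null minus wild type, over the well-measured members of each gene list (number of genes in parentheses), with a point for each of the 4 littermate pairs and a bar for the fit over all arrays. Meningeal, matrix, vessel, choroid plexus, macrophage and complement lists lie to the right of 0 in each pair, interneuron genes lie to the left in each pair, and the meningeal point of the pair of wild type 3 lies farthest out at 1.75.

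Signaling pathways showed small shifts. Of 25 Wnt genes 20 were higher (median 0.25, and within pairs from 0.17 to 0.28), 10 of them and none of the lower ones with an unadjusted p under 0.05. Wnt7b, a ligand that forebrain neurons and progenitors release toward vessels, had signals of 532, 685 and 531 in wild type and 765, 809, 826 and 808 in Atrx-null arrays (log2 difference 0.49, standard error 0.10, adjusted p = 0.116). Among receptors, Fzd7 had 109, 99.4 and 99.7 against 181, 151, 147 and 156 (0.64, adjusted p = 0.272). Apcdd1, a membrane inhibitor of Wnt signaling, had a difference of 0.43 (adjusted p = 0.157), and Axin2, the usual transcriptional target, of 0.14 (adjusted p = 0.999). Fzd7 and Rspo3, a Wnt-enhancing ligand also made by meninges (0.87), were those past the 1.5-fold filter, and the part of the meningeal signal in this list was not tested.

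In the TGF-beta and BMP list 23 of 31 genes were higher (median 0.14). The ligands Bmp5, Bmp6 and Bmp7 (0.81, 1.31 and 0.63) and the coreceptor Tgfbr3 were the 4 past the 1.5-fold filter, and the 3 ligands are also on the meningeal list. Without wild type 3 only Bmp6 and Tgfbr3 passed. The signal-transducing Smad1, Smad4 and Smad5 had differences of 0.13, 0.04 and 0.23, and the target Id1 of 0.37 (adjusted p = 0.565). Of 27 Notch genes 15 were higher (median 0.03), and Notch2 was the only one past the 1.5-fold filter. Dll3, a Delta-like ligand, had a difference of 0.24 without overlap (adjusted p = 0.796). Notch1 had a difference of -0.06, Notch3 of 0.22 and the target Hes5 of -0.19, none with an unadjusted p under 0.05. Retinoic acid genes had a median of 0.14 over 12. Aldh1a2, the retinoic acid synthase of the meninges, had 210, 190 and 40.6 against 349, 264, 291 and 309 (1.37, adjusted p = 0.437), or 0.60 without wild type 3, and the nuclear receptor Nr2f2 (0.63, adjusted p = 0.591) was the other past the filter. Hedgehog genes had a median of 0.15 over 9, with none past it.

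Among p53 targets and apoptosis genes 15 of 19 were higher (median 0.15). Cdkn1a, which encodes the cell cycle inhibitor p21, had signals of 222, 204 and 158 in wild type and 292, 345, 415 and 342 in Atrx-null arrays (log2 difference 0.86, standard error 0.20, adjusted p = 0.168) and was the only member past the 1.5-fold filter. Its groups did not overlap, but other targets were closer to 0, with Ccng1 at 0.39, Mdm2 at 0.08 and Bbc3, which promotes apoptosis, at -0.20. Of 26 imprinted genes 22 were higher (median 0.11, or 0.02 with arrays centred on all probe sets), and Igf2, Dcn (1.22, or 0.72 without wild type 3) and Dlk1 passed the filter, the first pair of which is also expressed by meningeal fibroblasts. Grb10 and Mest, imprinted growth regulators, had differences of 0.41 and 0.45 (adjusted p = 0.252 and 0.372). Sterol synthesis genes were lower in 15 of 20 cases (median -0.13), and Fdps, which makes farnesyl diphosphate, had 1067, 1042 and 1189 against 790, 805, 816 and 710 (-0.48, adjusted p = 0.108). Hypoxia and stress genes had medians of -0.05 and 0.02. Txnip, which binds thioredoxin, was the only one of them past the filter (0.89, adjusted p = 0.116).

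Chromatin regulators other than Atrx lay close to 0. Over 25 well-measured genes the median was -0.03, with a range from -0.51 to 0.29 and none past the 1.5-fold filter. Daxx, the histone chaperone that binds ATRX, had a log2 difference of -0.13 (adjusted p = 0.999). The cohesin subunit Smc3 was the lowest, at signals of 385, 404 and 441 in wild type and 235, 299, 251 and 373 in Atrx-null arrays (-0.51, adjusted p = 0.25), while the cohesin subunits Rad21 and Smc1a had differences of 0.07 and -0.01. Of the ancestral pseudoautosomal genes, those whose relatives sit in the human pseudoautosomal region, only Cd99, Crlf2 and Gtpbp6 are well measured. Of the 9 on the list that are read at any level, 8 were lower and 1 higher. By the 1.5-fold filter 2 of the 9 were lower, where 0.709% of genes at any level were. Crlf2, a cytokine receptor, and Gtpbp6, a GTP-binding protein, had differences of -0.45 and -0.28 with overlapping groups (adjusted p = 0.834 and 0.999). Csf2ra, the GM-CSF receptor subunit, had a mean below the level limit, and its signals were 207, 121 and 171 against 33.8, 26.8, 25.9 and 28.5 (-2.49, adjusted p = 0.00619). The paper also tabulated as lower at P0.5 clones that it found similar to Dhrsxy and Asmtl, whose signals are not given here.

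The E13.5 arrays, which played no part in choosing the members, read the same genes at an earlier age. Of the 127 genes higher at P0.5 by the 1.5-fold filter, 104 were also higher at E13.5 (81.9%, where 48.8% of all well-measured genes were), with a median log2 difference of 0.34 against 0.81 at P0.5, and 14 passed the filter there, beside 0.928% of all, among them Tcfl5, Aldh1a2, C1qa and C1qb. Of the 42 lower genes 27 were lower at E13.5 (64.3%; median -0.13 against -0.70), and 2, Cd99 and Sst, passed the filter in that direction, beside 0.535% of all. Cbln4, lower at P0.5, was the only gene past the filter in the opposite direction at E13.5 (0.65). Both ages share an estimate of spread for each probe set, so the calls at both ages are not independent. Meningeal genes were higher in 27 of 32 cases at E13.5 (median 0.40) and macrophage genes in all 14 (median 0.50), and interneuron genes were lower in 17 of 19 (median -0.39). Choroid plexus genes were not, with 1 of 11 higher at E13.5 and a median of -0.11.

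The test of the difference between ages passed the adjusted threshold for 3 well-measured probe sets (0.0185%), all of Nr4a2, which had a log2 difference of 0.07 at E13.5 (adjusted p = 0.00159 for the difference between ages on the brightest probe set). Without wild type 1, 2 or 3 or Atrx-null 1, 2B or 3 a single probe set passed. For the other genes past the adjusted threshold at P0.5 a difference between ages was not shown. Cd99 had log2 differences of -1.28 at E13.5 and -1.33 at P0.5, Tcfl5 of 0.83 and 2.20, Nhlh2 of 0.06 and 1.19, and Zic1 of -0.24 and 1.01.

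**Figure D5:**
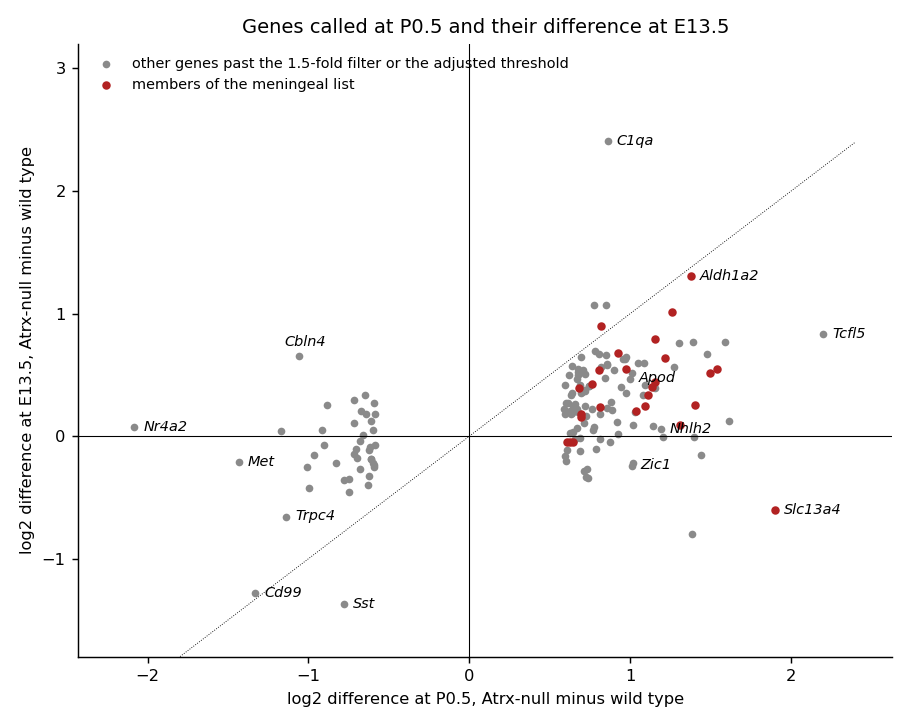
Log2 difference, Atrx-null minus wild type, at P0.5 (horizontal axis) and E13.5 (vertical axis) for the 169 genes past the 1.5-fold filter or the adjusted threshold at P0.5, with the 26 called members of the meningeal list in red and a dotted line where both ages are equal. Most higher genes lie above 0 at E13.5 but below the dotted line, Cd99 lies near the line, and Nr4a2 lies near 0 at E13.5.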

How the data were processed

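Total forebrain RNA was hybridised to Affymetrix mouse arrays, and the authors processed the scans in Affymetrix's own software, so the deposited values are intensity signals on a linear scale, each array scaled to a common target. The RMA values also described in the study's methods were not used here. Signals were log2 transformed (pseudocount 0) and each array was centred on the median of the well-measured probe sets. limma 3.58.1 in R 4.3.3 was fitted to 13 arrays and 45037 probe sets (64 controls left out) with an intensity trend, a mean for each age and genotype, and Benjamini-Hochberg adjustment over all probe sets, and the difference between ages came from the same fit. The model was tested on simulated data. A gene is represented by its brightest probe set annotated to that gene only, with symbols updated through RefSeq for 34741 of 34945 probe sets.

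Deviations from group means correlated within litters (0.384 for litter 1, 0.222 and 0.379 for litter 2, 0.593 for litter 3) and between -0.468 and 0.21 across litters, so litter numbers pair the arrays. Blocked values stand beside a result where they change its call.

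The members and the 35 gene lists (972 of their 1047 genes are read by the array) were chosen with earlier results of these data known. Named genes were Atrx, the genes the study tabulated, the smallest p-values past each call with all pairs in 1 direction, and up to 3 genes of each list by p. Other list members are given as defining markers, and this choice was made once their values were known. Arrays give no counting error, and their number limits the precision.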

Additional observations from a re-analysis of the deposited data

Results flagged for a closer look

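The genotype difference of Nr4a2 differed between the ages (log2 difference of -2.08 at P0.5 and 0.07 at E13.5, adjusted p = 0.00159 for the difference).

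In 12 of 164 named genes tested, 1 Atrx-null array lay far from the other 3, with its gap to the nearest of them, as a share of the range, above Dixon's critical value. Chance alone marks about 1 in 20 such groups. The shares were 0.884 for Mbp, 0.863 for Jcad, 0.965 for Foxp1, 0.842 for Sema3c, 0.989 for Cenpa, 0.971 for Dcc, 0.915 for Cldn11, 0.844 for Gata2, 0.867 for Dcn, 0.881 for Fdps, 0.945 for Sqle and 0.889 for Bcl11b. Atrx-null 2B was the array apart for Dcc and Mbp, and Atrx-null 1 for Cldn11 and Dcn.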

How the results depend on the processing

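Against 26 probe sets past the adjusted threshold, there were 14 with Atrx-null 2A and 2B averaged, 108 with array weights, 8 without both arrays of litter 3 (chosen after seeing the data), 10 without an intensity trend, 12 at a mean signal of 200 or more, and 10 to 18 with any single array left out. Of the 26, 17 remained with only the P0.5 arrays fitted (27 in all), 21 remained with the litter as a replicate block (37 in all), 10 without the trend and 26 with weights. With arrays centred on all probe sets, 20 probe sets passed the adjusted threshold. Against 196 higher probe sets past the 1.5-fold filter, there were 127 without litter 3, 83 at 200 or more, 379 at 50 or more, 126 at 100 or more in both genotypes, and 147 (without wild type 3) to 280 with 1 array left out. Against 71 lower ones there were 34 at 200 or more and 63 to 91 with 1 array left out. The age difference was called for 1 probe set without litter 3, 1 centred on all probe sets, 0 by limma without the trend (848 had an unadjusted p under 0.05 with it) and 1 to 3 with 1 array left out. Of the 1.5-fold calls 73.4% were higher, against 57.4% centred on all probe sets, which moves the median of the well-measured ones by -0.078, and 62.0% with array weights, 62.0% without wild type 3 and 62.9% without litter 3.

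List medians that moved by more than their spread between pairs were these. Centred on all probe sets they were -0.04 for axon guidance, 0.51 for choroid plexus, 0.11 for deep layer and subplate, 0.22 for endothelium, 0.01 for erythroid, -0.07 for hippocampal, -0.13 for hypoxia, 0.02 for imprinted, -0.32 for interneuron, -0.13 for neuropeptide, -0.06 for Notch, -0.01 for oligodendrocyte, 0.07 for p53, 0.06 for radial glia, -0.06 for stress, -0.19 for synapse, 0.06 for TGF-beta and BMP, -0.16 for upper layer and 0.16 for Wnt genes. With array weights they were 0.08 for axon guidance, 0.03 for erythroid, -0.22 for interneuron, 0.00 for oligodendrocyte and 0.09 for radial glia genes. Without litter 3 they were 0.51 for choroid plexus, -0.05 for hippocampal, -0.20 for interneuron and -0.13 for upper layer genes, and as deposited -0.25 for interneuron genes. At 100 or more in both genotypes they were 0.32 for choroid plexus, 0.26 for complement, 0.22 for endothelium, -0.21 for interneuron, 0.07 for TGF-beta and BMP and 0.14 for Wnt genes. At 200 or more they were 0.11 for complement, -0.03 for Notch and 0.14 for Wnt genes, and at 50 or more 0.26 for complement and 0.30 for retinoic acid genes. With 1 array left out they ranged from 0.44 to 0.63 for choroid plexus, 0.17 to 0.28 for deep layer and subplate, 0.01 to 0.10 for erythroid, -0.02 to 0.07 for hippocampal, -0.26 to -0.14 for interneuron, -0.11 to -0.03 for neuropeptide, -0.02 to 0.11 for Notch, -0.02 to 0.04 for stress, 0.08 to 0.18 for TGF-beta and BMP, -0.14 to -0.01 for upper layer and 0.19 to 0.26 for Wnt genes.

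Directions turned for Mbp (-0.02 centred on all probe sets, -0.16 and -1.0 on other probe sets), Neurod1 (-0.01 on another probe set), Slc17a6 (0.07 on another), Ttr (-0.00 centred on all probe sets), Nr4a1 (-0.04 without wild type 3, and up to 0.28 with other arrays left out) and Slc1a3 (-0.20 without wild type 3, and up to 0.47). The cause was not tested, except that leaving out arrays or raising the limit leaves fewer samples or probe sets. With the replicate block the adjusted p also went from 0.0527 to 0.0373 for 3110039M20Rik, from 0.0519 to 0.0398 for Pnpla6, from 0.0963 to 0.0389 for Nicn1 and from 0.0773 to 0.0409 for EST W45978, and apart from these and the calls given beside their results it changed no call among the genes named by the rule. Precision is limited by 3 wild type and 4 Atrx-null pups, 2 of which share a wild type littermate. Genes below the level limit, and how much meninges each dissection kept, are not resolved by these arrays.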

Other observations

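Of the 127 higher and 42 lower genes past the 1.5-fold filter, 55 and 33 are in none of the gene lists, and those given here were chosen after their values were seen. Among the higher ones, Apod, a lipid-binding protein of glia and meninges, had signals of 439, 295 and 212 in wild type and 614, 670, 580 and 531 in Atrx-null arrays (log2 difference 1.00, adjusted p = 0.093). Fgfr1, a receptor for fibroblast growth factors, had 404, 353 and 383 against 567, 759, 468 and 577 (0.64). Cp, the copper carrier ceruloplasmin, had 128, 82.7 and 44.8 against 241, 216, 249 and 148 (1.44, adjusted p = 0.214, or 0.0373 with the pair block). The wild type mean of Cp was below 100, so it is well measured only through the Atrx-null arrays. The groups did not overlap in any of these genes.

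Among the lower ones, Neto1, an auxiliary subunit of kainate receptors, had 595, 542 and 670 in wild type against 380, 357, 372 and 478 in Atrx-null arrays (log2 difference -0.59). Tshz2, a zinc finger factor, had 181, 198 and 188 against 104, 124, 98.7 and 133 (-0.72), and Cntn3, a neuronal adhesion protein, had 224, 224 and 199 against 138, 129, 169 and 114 (-0.65). All Atrx-null arrays lay below all wild type arrays in each, and none of the 3 passed the adjusted threshold.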
